A study of Rattus norvegicus with 6 samples.

Results

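Glycolysis and hypoxia response genes were compared between 2 clonal rat cell strains, a cholangiocarcinoma (bile duct cancer) strain and a cancer-associated fibroblastic strain. The set was a written list of 35 genes: 3 glucose and lactate transporters, 17 glycolytic enzymes, 4 regulators of glycolytic flux, 4 hypoxia-inducible factor (HIF) subunits and prolyl hydroxylases, and 7 HIF targets outside glycolysis. Members were found through the array annotation, which maps 55 of the 31099 probe sets to exactly 1 of these symbols. Of the 35 genes, 33 entered the test across 14217 genes. Gapdh is read only by quality control probe sets and by a probe set shared with Gapdhl10, and Pkm only by a probe set shared with Pkm-ps20.

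Both strains were derived from tumours that formed after BDEsp cells, cholangiocytes that had transformed spontaneously, were inoculated into the bile duct of young adult male Fischer 344 rats. BDEsp-TDECC (TDECC), the cholangiocarcinoma strain, was measured on 3 arrays, and BDEsp-TDESM (TDESM), the fibroblastic strain that overexpresses Acta2, on 3 arrays. For all 6 arrays alike, the labels describe 3-dimensional organotypic co-culture of rat cholangiocarcinoma cells in dilute type I collagen gel and name the TGF-beta inhibitors SB 431542 and LY2157299. The labels therefore do not separate the groups by either factor. They do not settle whether the arrayed RNA came from such cultures, or whether exposure was equal between the groups. Oxygen tension and glucose supply are not given in the sources used here. Each strain is 1 clone, so the arrays of a group repeat that clone, and nothing states that they came from separate cultures. P-values therefore set the difference between the strains against the scatter of these arrays, and that scatter may be technical.

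Glycolysis splits glucose into pyruvate in the cytosol. Glucose enters through the GLUT (Slc2a) carriers, is trapped by hexokinase, committed by phosphofructokinase, and its pyruvate can be reduced to lactate, which leaves through monocarboxylate transporters. HIF is a pair of proteins: an oxygen-sensitive alpha subunit (Hif1a or Epas1, also called HIF-2 alpha) and the stable partner Arnt. In the presence of oxygen, prolyl hydroxylases (Egln genes) mark the alpha subunit for destruction by the Vhl ubiquitin ligase, and when oxygen falls HIF binds promoters and enhancers of glycolytic and stress genes. Tumour cells often keep a high glycolytic rate even with oxygen present, and HIF-regulated genes such as Car9 are widely used as hypoxia markers in tumours. An array reads mRNA, and much of HIF control is on the protein, which was not measured here.

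The values are the authors' log2 expression values, in which 1 unit is a 2-fold step. They ran between 2.26 and 14.76, and each probe set has its own affinity, so only the same probe set was compared between arrays. Array medians were 5.80 to 5.86. Arrays correlated across genes at 0.968 to 0.976 within TDECC, at 0.995 to 0.998 within TDESM and at 0.788 to 0.823 between the strains. Marker levels followed the labels: 10 of 10 epithelial genes were higher in TDECC, with array means of 12.09 to 12.57 in TDECC, against 4.48 to 4.58 in TDESM. All 11 of 11 fibroblastic genes were lower, with array means of 5.12 to 5.27 in TDECC, against 12.94 to 13.03 in TDESM. Of 9 measured leukocyte markers 0 passed the limma test (1, Cd14, had an unadjusted p under 0.05, at 0.0489), with array means of 4.97 to 5.44 in TDECC, against 4.94 to 5.15 in TDESM. Of 8 measured endothelial markers, 1 was higher (Pecam1) and 1 lower (Egfl7). Among 8 hepatocyte markers, 1 was higher (Serpina1). Some of these markers were bright: Cd14 averaged 10.39 in TDECC and 8.73 in TDESM, and Egfl7 7.03 and 8.47. No detection calls were used, and the median leukocyte, endothelial and hepatocyte marker read 4.21 to 4.52 in TDECC and 4.32 to 4.77 in TDESM, so a gene at about that level is not shown to be above background, and a difference from it is read as a lower bound. The RNA integrity controls differed little for Gapdh, whose 3′ minus 5′ value was 0.01 to 0.08 in TDECC and 0.04 to 0.08 in TDESM; for Hexokinase it was 0.82 to 1.45 in TDECC and 0.41 to 0.86 in TDESM. Bacterial poly-A transcripts, which are spiked in before labelling, averaged 7.22 to 7.65 in TDECC and 8.34 to 9.03 in TDESM. Centring the arrays on them shifted the median difference of all genes to 1.22, against -0.0033 as deposited, and centring on 15 housekeeping genes shifted it to 0.10, so every difference below is relative to the bulk of genes on the array.

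Across the 33 measured genes, 10 were higher and 4 were lower in TDECC, and 19 did not pass (limma, Benjamini-Hochberg adjusted p at most 0.05 over all genes). That is 42.4% of the members, beside 42.7% of all 14217 genes, so the share called was close to the background. By direction, 30.3% of members were higher, beside 20.6% of all genes, and 12.1% were lower, beside 22.1%. At a difference of at least 1 on the log2 scale, 7 members were higher (background 12.1%) and 3 were lower (13.4%). The median difference, TDECC minus TDESM, was 0.31 over the members. The 22 measured transporters, enzymes and regulators held 5 higher (22.7%) and 4 lower genes (18.2%), shares close to those of all genes, with a median of 0.21. The 11 HIF factors, hydroxylases and other targets held 5 higher (45.5%) and 0 lower, with a median of 1.57. That contrast between the groups was not tested. The share of higher calls outside glycolysis changed with single arrays and settings. Without TDECC array 2, Car9 and P4ha1 were called lower. Then 66.7% of the calls on members outside glycolysis were higher, against 100% as deposited, and their median was 1.365. P4ha1 was also called lower without TDECC array 3 (85.7% higher), and with housekeeping centring or array weights per strain (87.5% higher in each). These are bulk measurements, in which fewer cells that express a gene and less RNA per cell cannot be told apart. Housekeeping centring left 42.9% of the calls on glycolytic members higher, against 55.6% as deposited, and poly-A centring gave 25 higher and 3 lower members. The count of higher members changed when single arrays were left out. It was 5 without TDECC array 2, TDESM array 1 or TDESM array 2, and 6 without TDESM array 3, while the count of lower members was 7 without TDECC array 2. Calls over all genes also fell without any 1 TDESM array. Higher genes were then 2131 to 2329, against 2930 as deposited, and lower genes 2474 to 2570, against 3135. Without TDECC array 2 they were 2862 and 2968. On 12 members the groups did not overlap with TDECC above (beside 26.4% of all genes) and on 6 with TDECC below (beside 27.3%); in either direction the share of all genes was 53.6%. Calls on 8 members kept their sign and threshold in every alternative tried: Slc2a1, Slc2a3, Eno2, Ldhb, Egln3, Ndrg1, Ankrd37 and Ddit4.

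**Figure D1:**
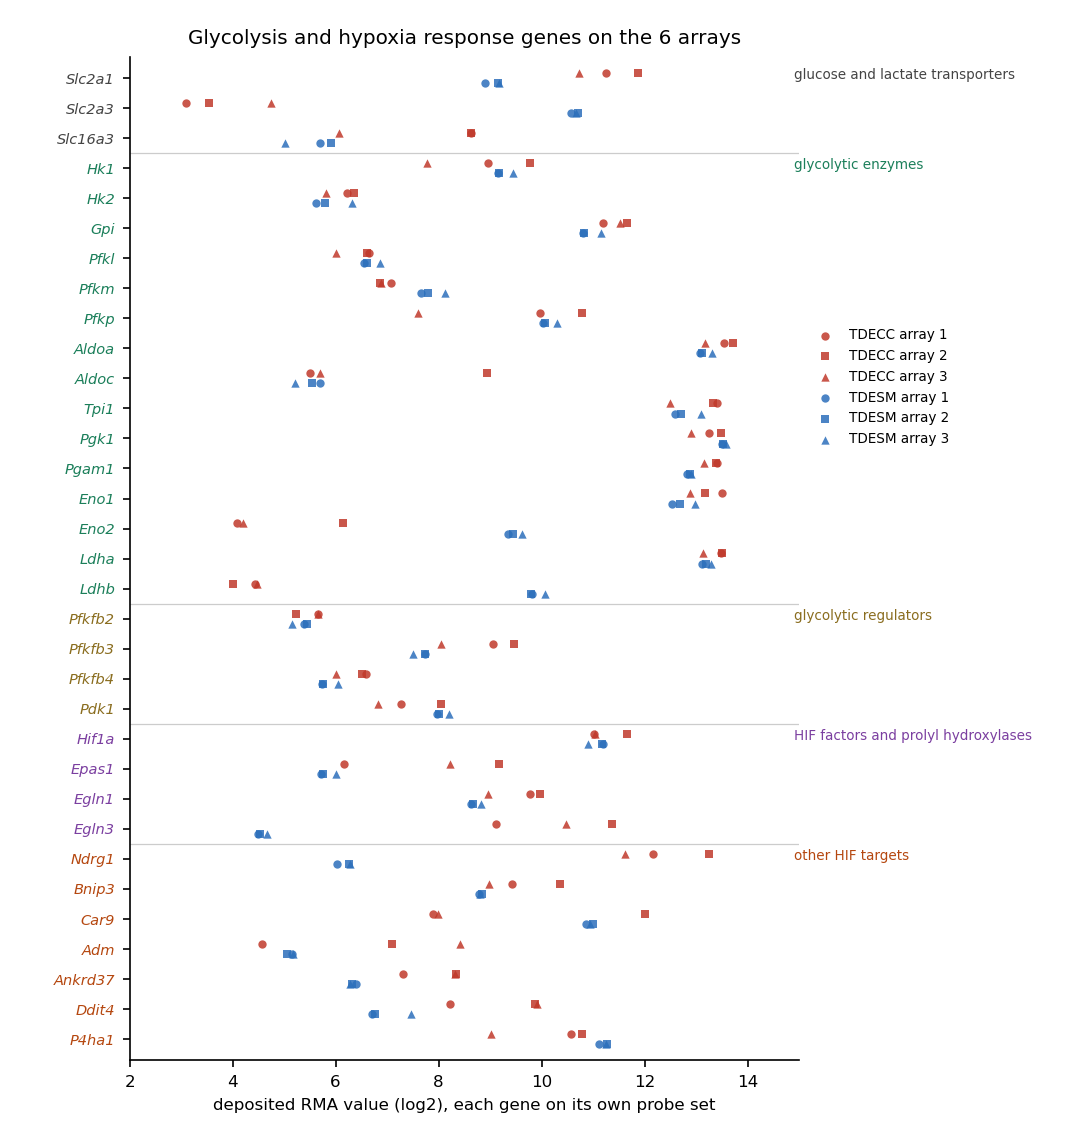
Deposited log2 value of each of the 33 measured genes (rows, by role) on the 3 TDECC arrays (red) and the 3 TDESM arrays (blue), with a marker shape for each replicate number. The TDESM points of a gene lie close together, while TDECC points spread widely for genes such as Car9 (7.89 to 12) and Adm (4.58 to 8.41); positions are not comparable between rows.

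**Figure D2:**
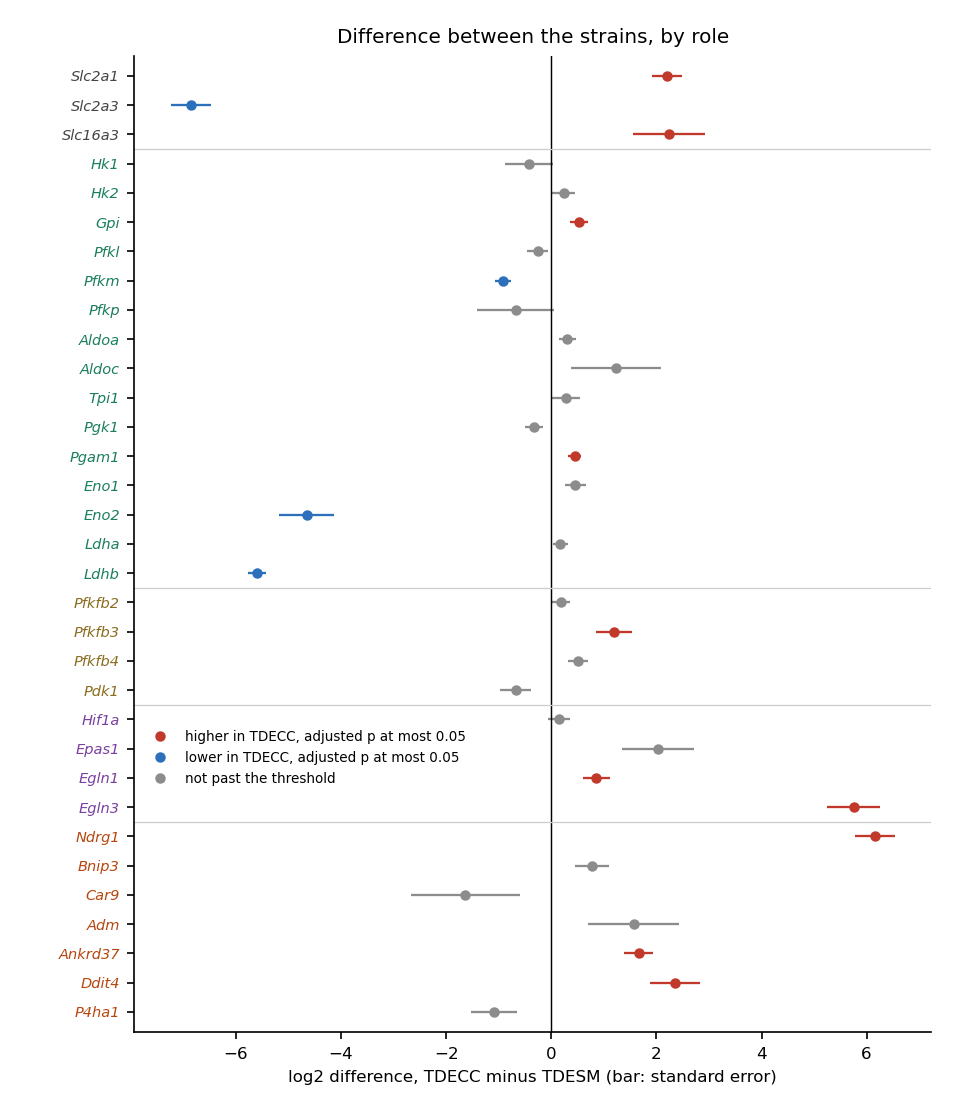
Difference in log2 value, TDECC minus TDESM, for the same genes, with the standard error of the limma fit as a bar and the call as colour. Differences run between -6.85 for Slc2a3 and 6.16 for Ndrg1, and most glycolytic enzymes lie within 1 of 0.

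Promoter sequence gives one view of what the members share apart from their levels. The core of the hypoxia response element, to which HIF binds, is written here as ACGTG or GCGTG, and both were searched on both strands of RefSeq promoter windows of 300 bases (250 before and 50 after the start, rat build GRCr8), which 32 of the 35 members have; Slc2a3, Pgk1 and Ndrg1 are not in that table. At least 1 match was present in 21 of 32 members (65.6%), beside 11777 of 27457 promoters in all (42.9%). ACGTG was present in 17 members (53.1%, beside 19.7%) and GCGTG in 15 (46.9%, beside 31.1%), and 3 or more matches in 9 members (28.1%, beside 8.62%). Matches occurred in 14 of 22 glycolytic members (63.6%) and 7 of 10 others (70.0%). A match is a string of letters and not a bound site, many members were chosen as known HIF targets, and the values below show matches in genes that were higher, lower and not called.

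Printed here are 4 promoters chosen to set such genes side by side: Ankrd37 (chr16:53001257-53001556, plus strand) and Slc2a1 (chr5:138002272-138002571, plus strand), both higher in TDECC, and the lactate dehydrogenase pair Ldha (chr1:106507842-106508141, plus strand), not called, and Ldhb (chr4:177177359-177177658, minus strand), lower in TDECC. Capitals mark ACGTG or GCGTG on the printed strand and CACGT or CACGC where the match is on the other strand, and CACGTG holds a match on each strand.
Ankrd37: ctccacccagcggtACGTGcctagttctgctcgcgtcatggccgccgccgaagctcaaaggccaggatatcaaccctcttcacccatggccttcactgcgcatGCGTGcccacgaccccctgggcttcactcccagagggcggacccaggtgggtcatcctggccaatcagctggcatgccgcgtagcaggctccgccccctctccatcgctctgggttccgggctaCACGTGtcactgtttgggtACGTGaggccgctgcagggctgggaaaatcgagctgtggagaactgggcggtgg
Slc2a1: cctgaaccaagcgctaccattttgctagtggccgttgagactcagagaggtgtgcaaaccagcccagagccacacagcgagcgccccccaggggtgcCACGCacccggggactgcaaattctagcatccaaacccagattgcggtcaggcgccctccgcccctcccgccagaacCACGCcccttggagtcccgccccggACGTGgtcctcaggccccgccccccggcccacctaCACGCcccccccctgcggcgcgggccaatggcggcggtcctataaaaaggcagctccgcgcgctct
Ldha: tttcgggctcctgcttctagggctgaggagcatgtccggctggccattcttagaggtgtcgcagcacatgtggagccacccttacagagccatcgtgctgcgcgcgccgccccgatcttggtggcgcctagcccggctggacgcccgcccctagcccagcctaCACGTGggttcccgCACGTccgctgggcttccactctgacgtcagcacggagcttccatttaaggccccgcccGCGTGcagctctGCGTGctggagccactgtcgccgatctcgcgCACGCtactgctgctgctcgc
Ldhb: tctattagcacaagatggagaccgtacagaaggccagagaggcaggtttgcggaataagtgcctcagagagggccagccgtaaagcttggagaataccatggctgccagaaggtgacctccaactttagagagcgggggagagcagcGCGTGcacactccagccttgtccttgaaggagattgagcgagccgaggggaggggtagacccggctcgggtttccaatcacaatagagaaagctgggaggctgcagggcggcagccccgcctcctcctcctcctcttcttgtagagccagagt
Ldha has 6 matches, the most of any member, beside 1 in Ldhb. Ankrd37 has 5 and Slc2a1 has 4, as have Bnip3 and Pdk1. Egln3, Adm and Epas1 have 0 in this window, which says only that these letters are absent from it.

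The glucose carriers changed in opposite directions. Slc2a1 (GLUT1), the widespread carrier of basal glucose uptake and a HIF target, read 11.24, 11.88 and 10.72 on the TDECC arrays, against 8.90, 9.16 and 9.17 on the TDESM arrays. Every TDECC array was above every TDESM array, and the difference of 2.20 ± 0.28 (standard error, n = 3 each) is 4.61-fold (limma adjusted p = 7.70e-04). Slc2a3 (GLUT3), the high-affinity carrier best known from neurons, read 3.10, 3.55 and 4.74 in TDECC, against 10.57, 10.71 and 10.67 in TDESM. The TDECC values were at the level of those markers, not shown to be above background, and far below all TDESM values, so the difference is a lower bound in size: -6.85 ± 0.39 (limma adjusted p = 1.17e-05). A second Slc2a3 probe set gave -2.40, and the mean of both -4.63, so the direction held and the size did not.

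Slc16a3 (MCT4), the lactate exporter of glycolytic cells, read 8.63, 8.63 and 6.07 in TDECC, against 5.69, 5.91 and 5.01 in TDESM. TDECC arrays 1 and 2 stood well apart from TDESM, whereas TDECC array 3 was just above the highest TDESM array. The difference was 2.24 ± 0.69 (limma adjusted p = 0.0362), and it did not pass when any single array other than TDECC array 3 was left out (adjusted p = 0.0767 to 0.129).

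Among the 15 enzymes in the test, 2 were higher (13.3%, beside 20.6% of all genes), 3 were lower (20%, beside 22.1%) and 10 did not pass, with a median difference of 0.17. None of those higher reached a log2 difference of 1. The count of higher enzymes was 0 without TDECC array 2, TDESM array 1 or TDESM array 2, 1 without TDESM array 3 and 4 without TDECC array 3. At the entry of the pathway, Hk1, the hexokinase of most tissues, read 8.96, 9.77 and 7.78 in TDECC, against 9.15, 9.17 and 9.44 in TDESM. Hk2, the insulin- and HIF-responsive hexokinase, read 6.23, 6.36 and 5.82 in TDECC, against 5.61, 5.79 and 6.31 in TDESM. Both pairs of ranges overlapped, and the differences of -0.42 for Hk1 and 0.23 for Hk2 did not pass (limma adjusted p = 0.519 and 0.463).

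Gpi, which turns glucose-6-phosphate into fructose-6-phosphate, ranged over 11.20 to 11.65 in TDECC and 10.81 to 11.16 in TDESM. Its ranges lay close without overlap, and it was 0.53 ± 0.17 higher (limma adjusted p = 0.0422). That call did not pass without TDECC array 2 or 3 or TDESM array 1 or 2 (adjusted p = 0.0924 to 0.146).

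Of the phosphofructokinase subunits, which make the committed step, only Pfkm, the muscle form, passed. It read 7.07, 6.87 and 6.88 in TDECC, against 7.66, 7.80 and 8.13 in TDESM, without overlap, and was lower by -0.92 ± 0.16 (limma adjusted p = 0.00285), a sign that turned under poly-A centring (0.30). A further Pfkm probe set gave -0.80 with the same call and a dim one -0.22. Pfkl, the liver form, read 6.64, 6.61 and 6.01 in TDECC and 6.56, 6.61 and 6.86 in TDESM. Pfkp, the platelet form, read 9.96, 10.79 and 7.6 in TDECC and 10.02, 10.07 and 10.30 in TDESM. TDECC array 3 was the lowest of all 6 for both genes, and neither difference passed, at -0.26 for Pfkl (adjusted p = 0.358) and -0.68 for Pfkp (adjusted p = 0.514), a value that was 0.24 without TDECC array 3.

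Aldolase splits the sugar into trioses. Aldoa, the ubiquitous form, read 13.54, 13.71 and 13.17 in TDECC and 13.07, 13.12 and 13.31 in TDESM, values near the top of the scale that overlapped. Its difference of 0.31 did not pass (limma adjusted p = 0.196), though it was 0.46 and passed without TDECC array 3 (0.0390). Aldoc, the brain form, read 5.51, 8.93 and 5.70 in TDECC and 5.69, 5.54 and 5.21 in TDESM. A single TDECC array, the second, stood above the rest, and the difference of 1.23 ± 0.86 did not pass (limma adjusted p = 0.302).

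Of the enzymes that follow aldolase, Tpi1, Pgk1 and Pgam1 were bright on every array. Tpi1, which interconverts the trioses, ranged over 12.49 to 13.40 in TDECC and 12.59 to 13.09 in TDESM. Pgk1, the first step that makes ATP, ranged over 12.89 to 13.48 in TDECC and 13.50 to 13.57 in TDESM. Neither passed, at 0.28 for Tpi1 (limma adjusted p = 0.465) and -0.32 for Pgk1 (adjusted p = 0.171), although the Pgk1 ranges did not overlap. Tpi1 passed at 0.57 without TDECC array 3 (adjusted p = 0.0490). Pgam1, phosphoglycerate mutase, was 0.45 ± 0.12 higher (limma adjusted p = 0.0229), with 13.15 to 13.40 in TDECC and 12.83 to 12.89 in TDESM. Without TDECC array 2 or any 1 TDESM array its adjusted p was 0.0519 to 0.0886.

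Gapdh, which oxidises glyceraldehyde-3-phosphate, was tested only by adding its control probe sets after the data had been seen. The middle-of-transcript probe set ranged over 13.84 to 14.27 in TDECC and 13.42 to 13.64 in TDESM, and was higher by 0.55 ± 0.15 (limma adjusted p = 0.0220). Those for its 3′ and 5′ ends gave 0.31 and 0.34, with adjusted p = 0.0932 and 0.0614 in the fit of all probe sets. The brightest value of any probe set was 14.60 to 14.76 on these arrays. Pkm, pyruvate kinase, is given no value since its only probe set also reads a second locus.

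In both the enolase and the lactate dehydrogenase pair, 1 form was lower in TDECC and the other did not pass. Eno1, the ubiquitous enolase, read 13.51, 13.18 and 12.88 in TDECC and 12.53, 12.68 and 12.98 in TDESM, with 1 TDECC array inside the TDESM range. Its difference of 0.46 did not pass (limma adjusted p = 0.110); it passed at 0.62 without TDECC array 3 (0.0427). Eno2, the enolase used as a marker of neurons and neuroendocrine cells, read 4.09, 6.14 and 4.21 in TDECC, against 9.34, 9.45 and 9.61 in TDESM. All TDECC arrays were far below TDESM. TDECC arrays 1 and 3 were at about the level of the median leukocyte, endothelial or hepatocyte marker, so its size is a lower bound: -4.65 ± 0.52 (limma adjusted p = 3.87e-04).

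Ldha, the subunit usually tied to making lactate and a HIF target, read 13.48, 13.51 and 13.14 in TDECC and 13.12, 13.20 and 13.29 in TDESM. It was bright in both strains and its ranges overlapped, with a difference of 0.17 (limma adjusted p = 0.383). Ldhb, the subunit that predominates in heart, read 4.43, 4.0 and 4.47 in TDECC, against 9.82, 9.80 and 10.06 in TDESM. The TDECC values were not shown to be above background, so the difference of -5.59 ± 0.17 (limma adjusted p = 6.43e-07) is a lower bound in size.

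Ratios of family members within an array put these shifts on a scale from which any scaling of the array cancels. The level of such a log2 ratio has no meaning by itself, since the probe sets differ, but its change between strains does. Of 9 pairs, 6 did not overlap between the strains, beside 53.6% of single genes in either direction. No share was worked out for other gene pairs, and these pairs were chosen with earlier results known. A pair without overlap has the smallest exact two-sided permutation p that 3 against 3 arrays allow (0.1), so no pair could pass 0.05. Ldhb to Ldha was -9.08 ± 0.42 in TDECC and -3.31 ± 0.09 in TDESM (SD, n = 3 each), a change of -5.77. Eno2 to Eno1 was -8.38 ± 1.22 in TDECC and -3.26 ± 0.09 in TDESM, a change of -5.11. The ratio of Slc2a3 to Slc2a1 was -7.48 ± 1.31 in TDECC and 1.57 ± 0.09 in TDESM, a change of -9.06, or -6.83 with the mean of all probe sets. In these 3 pairs the numerator in TDECC was at or near background, so the sizes are lower bounds and their order is not known. Among the pairs of the upper steps, Pfkm to Pfkl changed by -0.67 without overlap (-0.39 with the mean of all probe sets), while Hk2 to Hk1 (0.65, exact p = 0.3), Pfkp to Pfkl (-0.42, exact p = 0.7) and Aldoc to Aldoa (0.93, exact p = 0.6) overlapped.

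**Figure D3:**
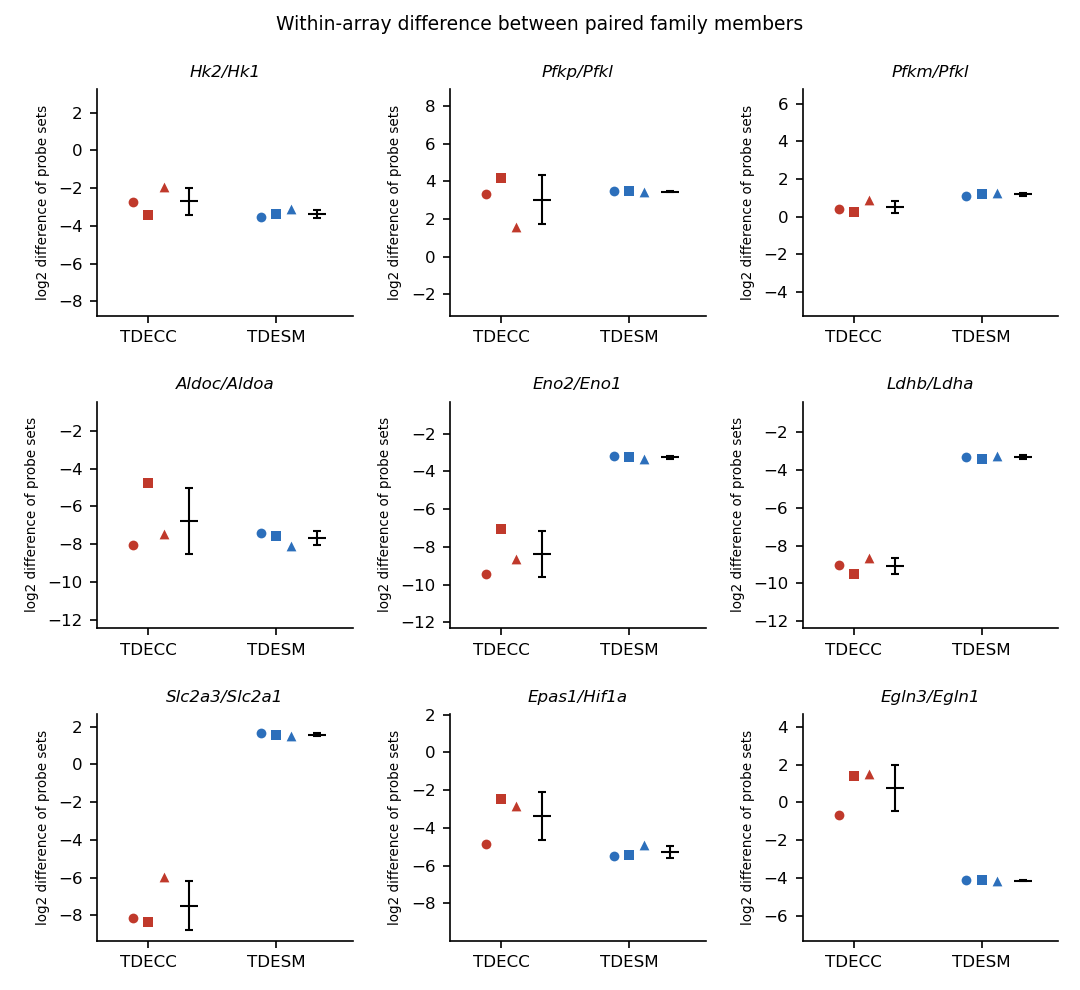
Log2 difference between the probe sets of 2 family members on the same array, for 9 pairs, with the 3 TDECC arrays (red) left of the 3 TDESM arrays (blue) and the mean and SD beside each; every panel spans the same number of log2 units. The strains are far apart for Slc2a3/Slc2a1, Ldhb/Ldha, Eno2/Eno1 and Egln3/Egln1, and overlap for Hk2/Hk1, Pfkp/Pfkl and Aldoc/Aldoa.

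Of the 4 regulators, 1 passed (25%, beside 42.7% of all genes). Pfkfb3, the kinase that makes fructose-2,6-bisphosphate and so activates phosphofructokinase, read 9.05, 9.47 and 8.04 in TDECC, against 7.74, 7.73 and 7.50 in TDESM. All TDECC arrays were above TDESM, by 1.20 ± 0.34 (limma adjusted p = 0.0282). The call rested on all arrays but TDECC array 3, since leaving out any other gave adjusted p = 0.0591 to 0.10. This is the brightest of 3 probe sets: the other 2 gave -0.07 and -0.04, and the mean of all 3 was 0.36 (adjusted p = 0.125).

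The remaining regulators did not pass. Pfkfb2 and Pfkfb4, isozymes of the same family, differed by 0.18 and 0.52 (limma adjusted p = 0.427 and 0.0677). Other Pfkfb2 probe sets disagreed, with 0.72 and -0.38 each past the threshold (0.0444 and 0.0410) and 0.47 not (0.0665). Pfkfb4 passed at 0.70 without TDECC array 3 (0.0108), but its second probe set gave -0.12 and the mean of both 0.20 (adjusted p = 0.263). Pdk1, a kinase that inhibits pyruvate dehydrogenase and so limits the use of pyruvate in the mitochondrion, ranged over 6.82 to 8.05 in TDECC and 7.96 to 8.20 in TDESM. Its difference of -0.68 (adjusted p = 0.112) was -1.02 without TDECC array 2 and then passed (adjusted p = 0.00512). A second Pdk1 probe set gave -0.07, and the mean of both was -0.38 (adjusted p = 0.262).

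Within the HIF system itself, neither alpha subunit passed as deposited, and both listed hydroxylases were higher; the third, Egln2, gave -0.13 and did not pass (limma adjusted p = 0.561). Hif1a read 11.01, 11.65 and 11.04 in TDECC and 11.19, 11.18 and 10.89 in TDESM, overlapping, with a difference of 0.15 ± 0.20 (limma adjusted p = 0.618) that was -0.062 without TDECC array 2. Epas1 read 6.17, 9.18 and 8.22 in TDECC, against 5.72, 5.76 and 6.0 in TDESM. TDECC array 1 was only just above TDESM and the other TDECC arrays well above, and the difference of 2.03 ± 0.69 missed the threshold (adjusted p = 0.0507). It was 2.87 and passed without TDECC array 1 (adjusted p = 4.19e-04). When any other single array was left out it did not pass (0.104 to 0.134). The Epas1 difference also passed with housekeeping centring (0.00534), array weights per strain (0.0144) and without the dimmest 33.3% of genes (0.0359). Poly-A centring gave 1.06e-17, but there adjusted p follows the size of a difference rather than its spread. A second Epas1 probe set, dim in both strains, gave 0.07, and the mean of both was 1.05 and did not pass (adjusted p = 0.0566).

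Egln3 (PHD3), the prolyl hydroxylase most strongly induced by HIF, read 9.11, 11.36 and 10.47 in TDECC, against 4.49, 4.53 and 4.67 in TDESM. TDESM was uniformly low and every TDECC array high, a difference of 5.75 ± 0.51 (limma adjusted p = 1.24e-04), a lower bound since TDESM was not shown to be above background. Egln1 (PHD2), the main oxygen sensor, read 9.78, 9.97 and 8.95 in TDECC, against 8.63, 8.66 and 8.83 in TDESM. It was higher by 0.86 ± 0.26 without overlap (adjusted p = 0.0360), a call that did not pass without any 1 array other than TDECC array 3 (adjusted p = 0.0817 to 0.111). The second Egln1 probe set gave -0.31 and the mean of both 0.28 (adjusted p = 0.0823). Within an array, Egln3 relative to Egln1 changed by at least 4.89, and Epas1 relative to Hif1a by 1.88, or 0.91 with the mean of all probe sets.

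Of the 7 HIF targets outside glycolysis, 3 were higher (42.9%, beside 20.6% of all genes), 0 were lower (beside 22.1%) and 4 did not pass, with a median difference of 1.57. Without TDECC array 2, 2 were lower, and without TDECC array 3, 1 was lower. At an unadjusted limma p under 0.05, 1 more was higher (Bnip3, 0.0491) and 1 was lower (P4ha1, 0.0432). Ndrg1, a stress-induced gene linked to differentiation, read 12.17, 13.24 and 11.62 in TDECC, against 6.03, 6.25 and 6.28 in TDESM. Every TDECC array was far above every TDESM array, a difference of 6.16 ± 0.38 (limma adjusted p = 1.88e-05). A second Ndrg1 probe set gave 2.53 and the mean of both 4.34.

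Ankrd37, an ankyrin repeat gene that HIF-1 induces, read 7.31, 8.34 and 8.32 in TDECC, against 6.39, 6.31 and 6.28 in TDESM. Ddit4 (REDD1), an inhibitor of mTORC1 signalling under hypoxia and other stress, read 8.22, 9.88 and 9.90 in TDECC, against 6.71, 6.76 and 7.46 in TDESM. For both genes all TDECC arrays were above TDESM, with TDECC array 1 the lowest of its group. Ankrd37 was 1.66 ± 0.28 higher (limma adjusted p = 0.00276) and Ddit4 2.36 ± 0.47 (adjusted p = 0.00625).

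The 4 targets that did not pass include the most variable genes of the set. Car9, the cell-surface carbonic anhydrase that exports acid, read 7.89, 12 and 7.99 in TDECC, against 10.86, 10.99 and 10.94 in TDESM. TDECC array 2 was above every TDESM array and the other TDECC arrays far below, so the difference of -1.64 ± 1.04 did not pass (limma adjusted p = 0.257), whereas without TDECC array 2 it was -2.99 and passed (1.17e-05). Adm, the vasodilator peptide adrenomedullin, read 4.58, 7.10 and 8.41 in TDECC, against 5.15, 5.06 and 5.18 in TDESM. Its TDECC arrays lay on both sides of TDESM, and its 1.57 ± 0.86 (adjusted p = 0.195) was 2.62 and passed without TDECC array 1 (adjusted p = 0.00169). These 2 genes are given by array because of their spread, a choice made after their values were seen.

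Bnip3, a mitophagy receptor, ranged over 8.98 to 10.36 in TDECC and 8.78 to 8.84 in TDESM, and P4ha1, a prolyl hydroxylase that stabilises collagen, over 9.02 to 10.79 in TDECC and 11.12 to 11.27 in TDESM. Neither overlapped between the strains, and neither passed, at 0.78 for Bnip3 (limma adjusted p = 0.0994) and -1.08 for P4ha1 (adjusted p = 0.0894). Bnip3 was 1.08 without TDECC array 3 (adjusted p = 0.0237). P4ha1 passed without TDECC array 2 at -1.42 (adjusted p = 0.0419) and without TDECC array 3 at -0.53 (0.0205).

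These genes were spread widely among the TDECC arrays. The SD over the 3 TDECC arrays had a median of 0.59 across members, beside 0.24 across all genes, and it exceeded 0.5 in 20 of 33 members (60.6%, beside 15.2% of all genes) and 1 in 9 (27.3%, beside 2.88%). Related genes were spread in part: the SD exceeded 0.5 in 8 of 20 other glycolysis genes (40.0%) and 10 of 36 further HIF targets (27.8%). The share was under that of all genes for glycogen genes (12.5%) and the pyruvate dehydrogenase complex and its regulators (9.09%). It was also under it for proteins that work with HIF (7.14%) and pentose phosphate genes (0%). Over the TDESM arrays the median SD was 0.14 across members and 0.12 across all genes, and 0 members exceeded 0.5. In 31 of 33 members (93.9%, beside 77.3%) TDECC had the larger SD. The limma fit uses 1 spread per gene for both strains.

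The spread of the members had a direction. TDECC array 2 was the highest of its group in 21 of 33 members (63.6%, beside 27.6% of all genes), in 9 of the 11 members outside glycolysis, in 22 of 36 further HIF targets (61.1%) and in 5 of 8 glycogen genes (62.5%). The share was 50% of 6 pentose phosphate genes and 42.9% of 14 proteins that work with HIF. It was 27.3% of 11 pyruvate dehydrogenase genes and only 15% of 20 other glycolysis genes. Gys1 and Gbe1, highest on TDECC array 2, count among both the further HIF targets and the glycogen genes. TDECC array 3 was the lowest of its group in 19 of 33 (57.6%, beside 34.2%), and in 15 of the 22 glycolytic members. TDECC array 2 exceeded the mean of TDECC arrays 1 and 3 by at least 1 in 11 members (33.3%, beside 3.40%) and in 5 of 36 further HIF targets (13.9%), and it was below that mean by at least 1 in 0 members. That excess was worked out for TDECC array 2 alone and was not among the planned comparisons. The largest such excesses were 4.06 for Car9, 3.33 for Aldoc, 2.01 for Pfkp, 1.99 for Eno2 and 1.99 for Epas1. TDECC array 2 had the lowest Hexokinase 3′ minus 5′ value of its group (0.82, beside 1.30 on array 1 and 1.45 on array 3) and the highest for beta-actin (1.46, beside 1.18 and 0.77), and the part of RNA quality in the pattern was not tested. The labels give no culture density, passage or batch for single arrays.

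**Figure D4:**
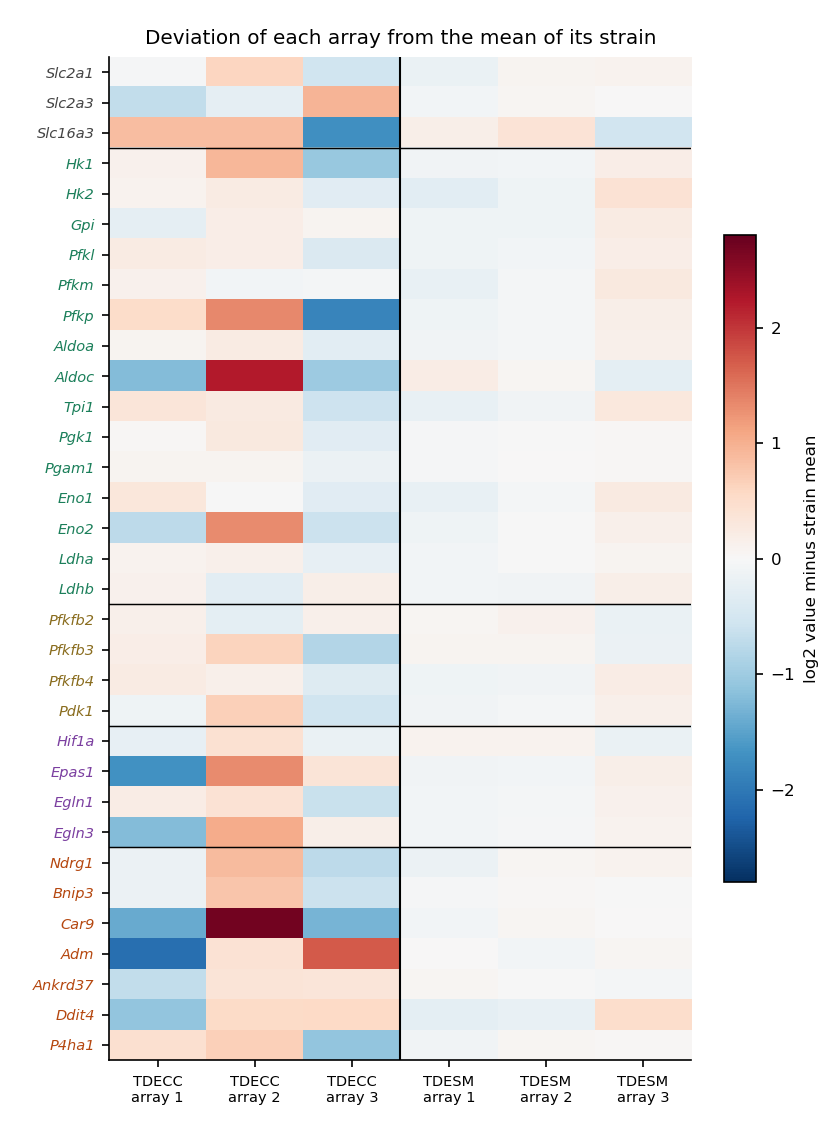
Deviation of each array's log2 value from the mean of its own strain, by gene (rows) and array (columns), with red above and blue below that mean. TDECC array 2 is red for most genes, most deeply for Car9 and Aldoc, TDECC array 3 is blue for most glycolytic genes, and the TDESM columns are pale throughout.

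The neighbouring pathways were read from lists that were likewise written with earlier results of these data known. The pyruvate dehydrogenase complex and its regulators, which govern the use of pyruvate by the mitochondrion, held 11 measured genes with a median difference of 0.67. Of these, 8 were higher (72.7%, beside 20.6% of all genes) and 0 were lower (beside 22.1%). At a log2 difference of at least 1, 2 were higher (background 12.1%). At an unadjusted limma p under 0.05, 1 gene was lower (Mpc2, 0.0363), and 1 was called lower without TDECC array 1. The 8 higher genes included Pdha1 and Pdhx, subunits of the complex, at 0.76 ± 0.14 and 0.81 ± 0.13 (limma adjusted p = 0.00448 and 0.00212). They also included the inhibitory kinases Pdk4 and Pdk2, at 2.57 ± 0.38 and 1.03 ± 0.17 (0.00146 and 0.00278). With the mean of all probe sets Pdk4 and Pdk2 gave 1.44 and 0.57. Pdhb, Pdk3, Pdp2 and Mpc1 made up the rest, so genes that open and genes that close pyruvate dehydrogenase were among the higher ones.

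Of 20 measured other genes of glycolysis, gluconeogenesis and monocarboxylate transport, 4 were higher (20%, beside 20.6% of all genes) and 2 were lower (10%, beside 22.1%), with a median of 0.02. Fbp2, the muscle fructose-1,6-bisphosphatase, which runs the phosphofructokinase step backwards, read 8.95, 7.69 and 8.55 in TDECC, against 4.0, 4.23 and 4.04 in TDESM, 4.31 ± 0.31 higher (limma adjusted p = 3.89e-05). The glycerol-3-phosphate dehydrogenases Gpd1, Gpd2 and Gpd1l1, the first pair of which form a shuttle for cytosolic NADH, were higher by 3.06 ± 0.71, 1.87 ± 0.15 and 0.94 ± 0.15 (adjusted p = 0.0117, 8.33e-05 and 0.00193). Gpd1 was 1.73 with the mean of all probe sets and missed the threshold without TDESM array 3 (0.0520). Pck2, mitochondrial phosphoenolpyruvate carboxykinase, was lower by -1.89 ± 0.28 (adjusted p = 0.00150). Slc16a7 (MCT2), a high-affinity carrier of lactate and pyruvate, was lower by -1.27 ± 0.38 (adjusted p = 0.0329) and did not pass without TDECC array 2 or 3 or any 1 TDESM array (0.0564 to 0.113), which leaves 1 lower gene.

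Of 6 measured pentose phosphate genes, 3 were higher (50%, beside 20.6% of all genes) and 1 was lower (16.7%, beside 22.1%), with a median of 0.45. Rpia, ribose-5-phosphate isomerase, was 2.26 ± 0.22 higher (limma adjusted p = 1.93e-04; 1.04 with the mean of all probe sets). Pgls at 0.67 ± 0.18 and Taldo1 at 0.49 ± 0.14, an early and a late enzyme of the route, passed (adjusted p = 0.0193 and 0.0253) but not without TDESM array 1 or 2 (0.0786 to 0.0957), when the count of higher genes was 1. Pgd, the second dehydrogenase of the route, was lower by -0.80 ± 0.26 (adjusted p = 0.0449); its sign turned under poly-A centring (0.42), and it did not pass without TDECC array 1 or 3 or TDESM array 2 or 3 (0.0938 to 0.137).

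Glycogen genes were 1 higher (12.5%, beside 20.6% of all genes) and 3 lower (37.5%, beside 22.1%) of 8 measured, with a median of -0.29. Gbe1, the branching enzyme, read 2.72, 3.53 and 2.91 in TDECC, against 9.29, 9.17 and 9.56 in TDESM, lower by -6.29 ± 0.23 (limma adjusted p = 1.43e-06). Pgm1 and Gyg1, phosphoglucomutase and the glycogenin primer, were lower by -0.95 ± 0.22 and -0.36 ± 0.12 (adjusted p = 0.0106 and 0.0455), both with a sign that turned under poly-A centring (0.27 and 0.86). Gyg1 did not pass without TDECC array 2 or 3 or any 1 TDESM array (0.0781 to 0.137). Pygl, the liver glycogen phosphorylase, read 6.25, 8.86 and 5.35 in TDECC, against 3.43, 3.30 and 3.60 in TDESM, with TDECC array 2 again the highest. It was 3.38 ± 0.81 higher (adjusted p = 0.0136), and just missed the threshold without TDESM array 2 (0.0523).

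The proteins that work with HIF were mostly uncalled, 1 higher (7.14%, beside 20.6% of all genes) and 2 lower (14.3%, beside 22.1%) of 14 measured, with a median of -0.11. Arnt2, a partner of HIF alpha subunits best known from neurons, read 5.22, 5.09 and 5.16 in TDECC, against 8.28, 8.34 and 8.55 in TDESM, lower by -3.23 ± 0.12 (limma adjusted p = 1.78e-06; -1.64 with the mean of all probe sets). Vhl was lower by -0.87 ± 0.11 (adjusted p = 8.51e-04), with a sign that turned under poly-A centring (0.35). Ep300, a HIF coactivator, was 0.77 ± 0.21 higher (adjusted p = 0.0223), which did not pass without TDECC array 2 or 3 or TDESM array 2 or 3 (0.0591 to 0.0699).

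A wider list of 39 HIF targets, 36 of them measured, held both directions, with a median difference of -0.005. Of these, 9 were higher (25%, beside 20.6% of all genes) and 15 were lower (41.7%, beside 22.1%). Mxi1, an antagonist of Myc, Ero1a, an oxidase of disulphide formation, Angptl4, a lipase inhibitor, and Rragd, a nutrient-sensing GTPase, were higher by 3.25 ± 0.29, 2.64 ± 0.45, 2.63 ± 0.44 and 2.28 ± 0.33 (limma adjusted p = 1.24e-04, 0.00303, 0.00261 and 0.00128). Vldlr, a lipoprotein receptor, was lower by -8.46 ± 0.17, with 3.03 to 3.55 in TDECC and 11.62 to 11.78 in TDESM. Lox, the lysyl oxidase that cross-links collagen, was lower by -8.29 ± 0.17, with 4.29 to 4.52 in TDECC and 12.40 to 12.93 in TDESM. Plod2, a lysyl hydroxylase of collagen, was lower by -7.36 ± 0.13, with 3.75 to 3.97 in TDECC and 11.10 to 11.36 in TDESM. Adjusted p for Vldlr, Lox and Plod2 was 1.47e-07, 1.53e-07 and 1.42e-07 in the limma fit, and Gbe1 of the glycogen list was the fourth named. Collagen-modifying genes stand on this list together with stress and metabolic genes, and the fibroblastic markers, collagens among them, differed between the strains over the same arrays; the 2 kinds of difference cannot be told apart in a comparison of these strains.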

How the data were processed

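Total RNA was measured on rat Affymetrix arrays, 3 for TDECC and 3 for TDESM, grouped by sample title. The deposited log2 values were processed by the authors, and the submitters' processing notes name RMA without a version. No detection calls were used. The number of arrays limits the precision. Of 31099 probe sets, 20832 had 1 gene symbol, 436 several and 9831 none in the platform annotation. Each gene was read from its brightest probe set (highest mean of all arrays), control probe sets left out, giving 14217 genes. From these, TDECC minus TDESM was fitted with limma 3.58.1 (lmFit, eBayes) in R 4.3.3, two-sided; p-values were adjusted by Benjamini-Hochberg across the 14217 genes, and 0.05 was the threshold. Isoform ratios were tested by exact permutation over arrays.

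The members, lists and the rule for named genes (called members with a log2 difference of at least 1, both members of each isoform pair, and up to 4 genes each way per related list) were chosen with earlier results of these data known. No replicate block was used. On simulated data (14217 genes, 200 changed) the fit recovered 56% of genes changed by 1 and 88% of those changed by 2 on the log2 scale, all with the right sign, and 4% of calls were false. The simulation gave both strains the same spread per gene. On the arrays TDECC had the larger SD in 77.3% of genes and 6065 genes were called, so these rates may not hold there. Promoter sequences are RefSeq's, build GRCr8. Protein sequences were not used here.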

Additional observations from a re-analysis of the deposited data

How the results depend on the processing

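Of the 33 members, 8 kept their direction and their side of the threshold in every alternative, all of them among the 14 called; 9 of those did when poly-A centring and the minimum difference are set aside, and 6 lost the call at least once; the cause was not tested. Poly-A centring, in which adjusted p follows the size of a difference rather than its spread, gave 10873 higher and 898 lower genes, 25 higher members, 11 enzymes, 5 other HIF targets, 21 further HIF targets, 12 HIF machinery, 18 other glycolysis, 6 glycogen and 5 pentose phosphate genes higher, and 0 other glycolysis, 0 pentose phosphate, 1 glycogen and 1 HIF machinery gene lower. It reversed Hk1 to 0.80, Pfkl to 0.96, Pfkm to 0.30, Pfkp to 0.54, Pgk1 to 0.90, Pdk1 to 0.54, P4ha1 to 0.14, Pgd to 0.42, Pgm1 to 0.27, Gyg1 to 0.86 and Vhl to 0.35. A minimum log2 difference of 1 left 1717 genes higher and 1908 lower, 0 enzymes, 2 pyruvate dehydrogenase, 1 pentose phosphate and 0 HIF machinery genes higher, and 0 pentose phosphate, 1 glycogen and 1 HIF machinery gene lower. Housekeeping centring gave 0 enzymes higher, and 1 other HIF target and 0 pentose phosphate genes lower. Array weights per strain gave 1 enzyme higher, and 1 other HIF target, 1 pyruvate dehydrogenase and 0 pentose phosphate genes lower. Without the dimmest 33.3% of genes, 0 glycogen genes were higher and 9 further HIF targets lower. With the mean of all probe sets, 2 HIF machinery genes were higher, and the ratio changes were -0.39 for Pfkm/Pfkl, -6.83 for Slc2a3/Slc2a1 and 0.91 for Epas1/Hif1a. Same-numbered arrays did not deviate together (correlations -0.07, 0.02 and -0.14, and 1 of 6 arrays closest to its own number). The replicate block gave 2592 higher and 2750 lower genes, 8 higher and 4 lower members, 0 enzymes and 0 HIF machinery genes higher and 0 pentose phosphate genes lower. It ended the calls on Gpi, Pgam1 and Egln1, and Epas1 then passed (adjusted p = 0.0618, 0.0777, 0.0546 and 0.0330).

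Leaving out 1 array at a time gave 2131 to 3035 of all genes higher and 2474 to 3425 lower. Among members it gave 5 to 14 higher and 4 to 7 lower, 0 to 4 enzymes higher, and 0 to 2 other HIF targets lower. It also gave 1 to 2 other glycolysis genes and 0 to 1 pyruvate dehydrogenase genes lower, 1 to 4 pentose phosphate genes higher and 0 to 1 lower, and 0 to 1 glycogen and 0 to 1 HIF machinery genes higher. Signs of 3 uncalled members turned, Hk1 (-0.88 to 0.11) and Pfkp (-1.35 to 0.24) without TDECC array 3 and Hif1a (-0.062 to 0.26) without TDECC array 2. The change of Pfkp/Pfkl, which overlapped between strains, ran between -1.0 and 0.30, and that of Aldoc/Aldoa between -0.06 and 1.56. Keeping the Gapdh and Hexokinase control probe sets, an alternative added after the data were seen, changed the call of none of the 33 members in the fit and added Gapdh, for 11 higher members and 3 higher enzymes.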

Other observations

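Eno2 and Tpi1, glycolytic genes that lie on chromosome 4 of the rat with 2 protein-coding genes between them in the RefSeq gene table (assembly GRCr8), had different values. Eno2 was lower in TDECC by -4.65, while Tpi1 gave 0.28 and did not pass (limma adjusted p = 3.87e-04 and 0.465). Of the genes between, Spsb2 was lower by -1.17 (adjusted p = 0.00711) and Lrrc23 gave -0.26 and did not pass. P4ha1 (-1.08, not called) and Ddit4 (2.36, higher) lie on chromosome 20 with 5 protein-coding genes between them. Both pairs were picked after their values were seen.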
